A study of Homo sapiens with 5 samples.

Results

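The tissue inhibitors of metalloproteinases (TIMP1, TIMP2, TIMP3 and TIMP4), the metalloproteinases MMP2 and MMP14 and the membrane-bound inhibitor RECK were examined in MHH-ES-1 cells that had received a mimic of 1 arm of miR-483. The genes were chosen by name, with TIMP2 included as a reported target of miR-483-5p, and every probe set annotated to them was taken, which gave 21 of the 54675 probe sets on the array and 7 of the 19775 genes with a probe set of their own. MHH-ES-1 is an established human Ewing sarcoma cell line, and RNA was hybridised to Affymetrix HG-U133 Plus 2 arrays, which read the 3' ends of transcripts. Cells had been transfected by a cationic lipid reagent with a synthetic microRNA mimic at 50 nM and were harvested 48 h later. The groups were the miR-483-5p mimic (2 arrays), the miR-483-3p mimic (1 array) and a scrambled control mimic (2 arrays). All groups share the cell line, the lipid and the mimic dose, and no untransfected cells are among the 5 arrays. The second array of each pair is labelled a repeat of the first, with no word on separate cultures, so a p-value here reflects the spread among these arrays alone, which may be technical in origin.

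The TIMP proteins are small secreted inhibitors that sit in the catalytic cleft of matrix metalloproteinases and block them. TIMP2 has a second role, because a complex of TIMP2 with MMP14, a membrane-anchored proteinase, captures the secreted proenzyme of MMP2 at the cell surface, where a free MMP14 molecule cleaves it into active MMP2. RECK is anchored to the membrane by a glycolipid and restrains several of the same proteinases. In sarcomas these genes are studied for their part in matrix breakdown and invasion.

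The arrays had been scaled to one trimmed mean of 150, and their median signals ran from 39.2 to 44.9. Of 9 Ewing sarcoma markers 8 had a probe set of their own, namely CD99, NKX2-2, STEAP1, CCND1, PRKCB, BCL11B, LIPI and NPY1R, and all 8 lay over the filter on dim genes, a signal of 27.2, and their summed signal was 19418 to 21414 with miR-483-5p, 19924 with miR-483-3p, against 20393 to 21211 in the control. The sum covers moves in both directions between miR-483-5p and the control. CCND1 was higher with miR-483-5p, with means of 5881 against 4459 in its brightest probe set. LIPI (862.5 against 1256), NPY1R (1980 against 2860), NKX2-2 (2563 against 2836) and STEAP1 (1785 against 2085) were lower. The arrays of CD99, PRKCB and BCL11B overlapped. None of 5 epithelial markers passed the filter, and 1 of 4 leukocyte and 2 of 4 endothelial markers with a probe set did. Of 7 fibroblast markers 6 passed, led by COL3A1, and the summed signal of all 7 was 1882 to 1903 with miR-483-5p, 1490 with miR-483-3p, against 1705 to 1825 in the control. The ratio of the 3' to the 5' probe set of a gene is a sign of RNA integrity. For GAPDH it was 1.094 and 1.102 with miR-483-5p, 1.064 with miR-483-3p, against 1.016 and 0.996 in the control. For ACTB it was 1.182 and 1.073 with miR-483-5p, 1.093 with miR-483-3p, against 1.065 and 1.04 in the control. The first miR-483-5p array stood highest for ACTB. Both ratios separated the mimic arrays from the controls, and their part in the differences between these arrays was not tested.

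The first comparison set miR-483-5p against the scrambled control. TIMP1, TIMP2 and TIMP3 were dimmer with miR-483-5p in each of their 8 probe sets, and in all 8 both miR-483-5p arrays lay below both control arrays. Over all probe sets tested, 21.2% were lower in this way and 18.5% were higher. MMP14 was brighter in the 2 probe sets whose arrays did not overlap, MMP2 was slightly dimmer, and the probe sets of RECK disagreed. No member passed limma's test over all 14591 genes at an adjusted p of 0.05, and neither did any other gene (0%). An unadjusted p under 0.05 was reached by 1563 genes, 10.7% of those tested, and 3 of the 6 members tested were among them, TIMP2, TIMP3 and TIMP1. The members were picked with earlier results known, and probe sets of 1 gene read the same transcripts, so neither count is a test of the family.

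TIMP2 had the largest difference of the members. Its brightest probe set, 231579_s_at, had signals of 1170.7 and 1180.4 with miR-483-5p, 1879.8 with miR-483-3p, against 2142.4 and 2072.9 in the control. The pair of miR-483-5p arrays was far tighter than its distance from the control, and the single miR-483-3p array lay between them, nearer to the control. The mean was 1176 ± 6.86 with miR-483-5p, compared with 2108 ± 49.1 for the scrambled mimic (SD, n = 2 each), a log2 difference of -0.83 (SE 0.14, 95% CI -1.15 to -0.50, limma adjusted p = 0.267). All differences here are on the scale of log2(signal + 32), on which the change of a dim probe set appears smaller than it is. Among the 14591 genes, 46 had a lower difference than TIMP2, and by p it ranked 29.

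The other probe sets of TIMP2 went the same way by unequal amounts. Probe set 224560_at had 852.2 and 1188.0 with miR-483-5p, 1774.4 with miR-483-3p, against 1957.0 and 2234.2 in the control, which put miR-483-5p -1.03 from the control on the log2 scale. The dimmer 203167_at had 289.7 and 330.7 with miR-483-5p, 342.7 with miR-483-3p, against 413.0 and 430.3 in the control, a difference of -0.41. In this last probe set the miR-483-3p array was close to the miR-483-5p arrays, whereas in the brighter probe sets it was close to the control. Tested probe set by probe set over 32768 probe sets, the limma adjusted p-values were 0.514, 0.516 and 0.584, in the order named. The gene-level call changed with the processing: limma adjusted p was 0.0126 when the variance prior followed intensity and 0.0159 with a pseudocount of 100, and it ran from 0.0126 to 0.520 over all 13 alternatives, with a log2 difference of -0.85 to -0.76.

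**Figure D1:**
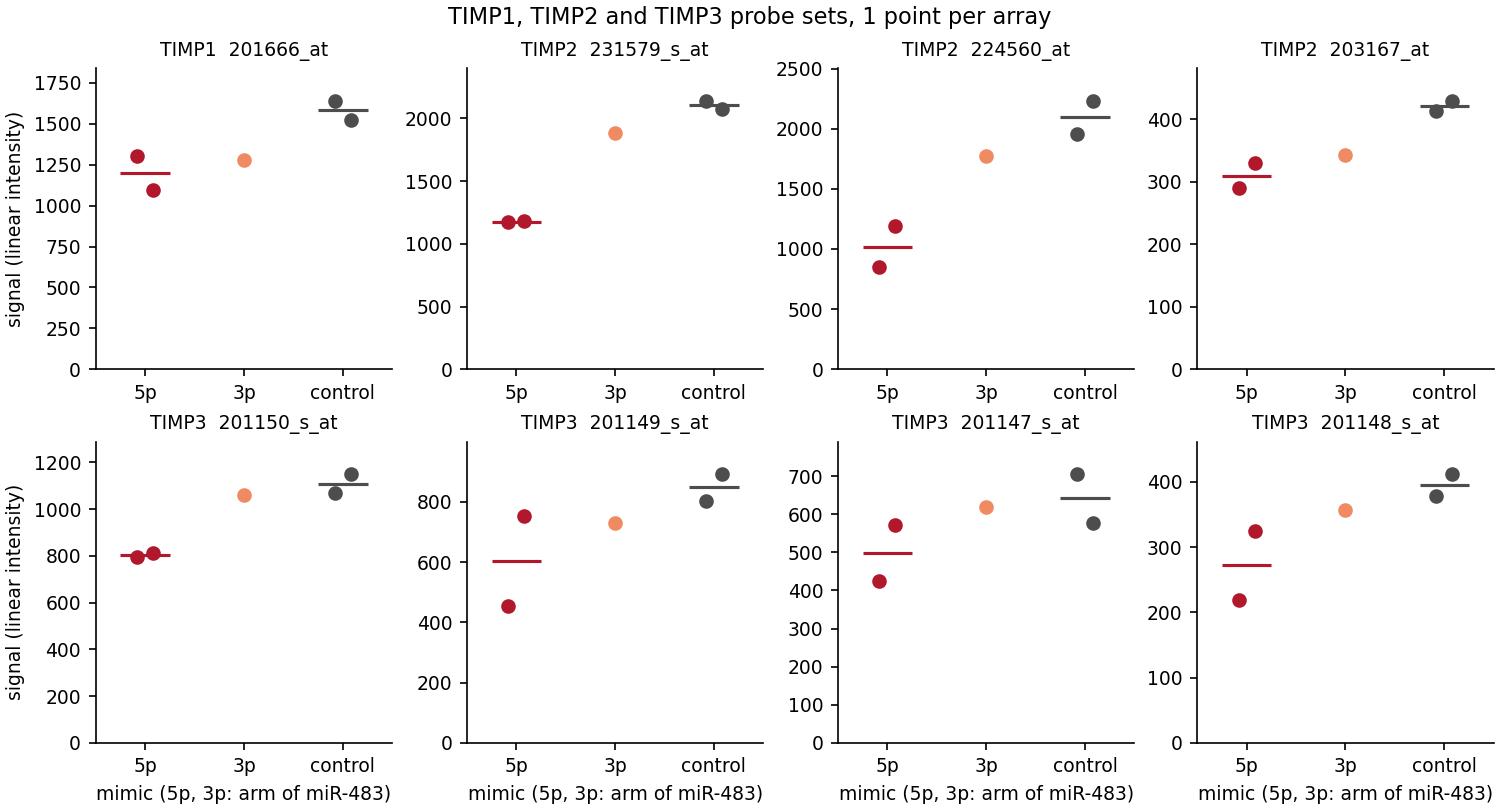
Signal (linear intensity, axes from 0) of the 8 probe sets of TIMP1, TIMP2 and TIMP3, 1 point per array, with the miR-483-5p mimic on the left, miR-483-3p in the middle and the scrambled control on the right; bars mark the means of the pairs. In each panel both miR-483-5p arrays lie below both control arrays, and the TIMP2 231579_s_at means are 1176 against 2108.

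TIMP3, the family member that stays bound to the extracellular matrix and also inhibits several ADAM proteinases, was lower by less. Its brightest probe set, 201150_s_at, had 796.5 and 812.5 with miR-483-5p, 1058.2 with miR-483-3p, against 1066.4 and 1149.4 in the control. The miR-483-5p arrays were well below the other 3, and the miR-483-3p array lay just under the lower control. Against the control, miR-483-5p differed by -0.45 on the log2 scale (SE 0.14, 95% CI -0.78 to -0.12, limma adjusted p = 0.383). The other 3 probe sets gave differences of -0.51, -0.51 and -0.35. In 201147_s_at the groups were nearly touching, with 424.2 and 571.7 with miR-483-5p against 705.6 and 578.0 in the control. In these 3 probe sets the first miR-483-5p array was the lower one each time, at 455.6 against 754.0 for its repeat in 201149_s_at.

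TIMP1, a secreted inhibitor that also acts as a growth factor for some cells, is read by 1 probe set. It had 1302.6 and 1093.8 with miR-483-5p, 1282.2 with miR-483-3p, against 1643.0 and 1525.8 in the control. Both mimics therefore gave values below both controls, and the miR-483-3p value lay between the 2 miR-483-5p arrays. The means were 1198 ± 148 with miR-483-5p, compared with 1584 ± 82.9 for the scrambled mimic (SD, n = 2 each), a log2 difference of -0.40 (SE 0.15, 95% CI -0.76 to -0.04, limma adjusted p = 0.433). Leaving out 1 array at a time moved it between -0.52 and -0.28. TIMP4, which is known mainly from heart and brain, had signals of 3.0 and 4.3 with miR-483-5p, 7.1 with miR-483-3p, against 4.8 and 2.7 in the control. These lie far under the filter at 27.2, so TIMP4 was not tested, and no detection calls were used here that could place it against background.

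MMP14, the membrane-anchored activator of MMP2, was brighter with both mimics in its brightest probe sets. Probe set 160020_at had 467.1 and 549.2 with miR-483-5p, 576.5 with miR-483-3p, against 398.0 and 422.9 in the control. All 3 mimic arrays were above both controls, and the miR-483-3p array was the highest. The means were 508 ± 58.1 with miR-483-5p, compared with 410 ± 17.6 for the scrambled mimic (SD, n = 2 each), a log2 difference of 0.28 (SE 0.15, 95% CI -0.07 to 0.64, limma adjusted p = 0.553). Without the second miR-483-5p array this difference was 0.17, and without the first it was 0.39. The second probe set, 202828_s_at, had 207.4 and 288.8 with miR-483-5p, 230.5 with miR-483-3p, against 154.2 and 171.0 in the control, a difference of 0.51. In 217279_x_at, a probe set whose suffix marks probes that may match other transcripts, the first miR-483-5p array had 59.3 and its repeat 217.0, against 107.3 and 60.7 in the control, so the groups overlapped. The fourth, 202827_s_at, had at most 8.6 on any array and was not tested.

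MMP2, the secreted gelatinase that TIMP2 and MMP14 together bring to activation, differed little. Its brightest probe set, 201069_at, had 331.2 and 256.8 with miR-483-5p, 297.2 with miR-483-3p, against 357.7 and 295.1 in the control. The groups overlapped, with a log2 difference of -0.14 (95% CI -0.56 to 0.28, limma adjusted p = 0.817), an interval that leaves room for a difference in either direction. Probe set 1566678_at had 108.4 and 123.9 with miR-483-5p, 96.8 with miR-483-3p, against 138.0 and 146.9 in the control, and there both mimics lay below both controls, with a difference of -0.24 for miR-483-5p. The third, 1566677_at, was at 10.5 or less on every array.

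RECK, the membrane-anchored inhibitor, gave no common direction. Its brightest probe set, 216153_x_at, had 685.1 and 443.8 with miR-483-5p, 471.1 with miR-483-3p, against 503.2 and 398.5 in the control. The suffix of this probe set also marks probes that may match other transcripts, and the gene-level value of RECK rests on it. The groups overlapped, and the log2 difference of 0.28 (95% CI -0.25 to 0.82, limma adjusted p = 0.690) rested on the first array of the miR-483-5p pair, and leaving that array out gave -0.01. Probe set 205407_at went the other way, with 95.1 and 95.0 with miR-483-5p, 66.2 with miR-483-3p, against 125.9 and 112.8 in the control. Both mimics lay below both controls there, by -0.25 with miR-483-5p and -0.62 with miR-483-3p. The dimmer 1558115_at and 1558116_x_at differed by 0.05 and -0.12 between miR-483-5p and the control, with overlapping arrays. The fifth, 216156_at, had 25.6 at most and was not tested.

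**Figure D2:**
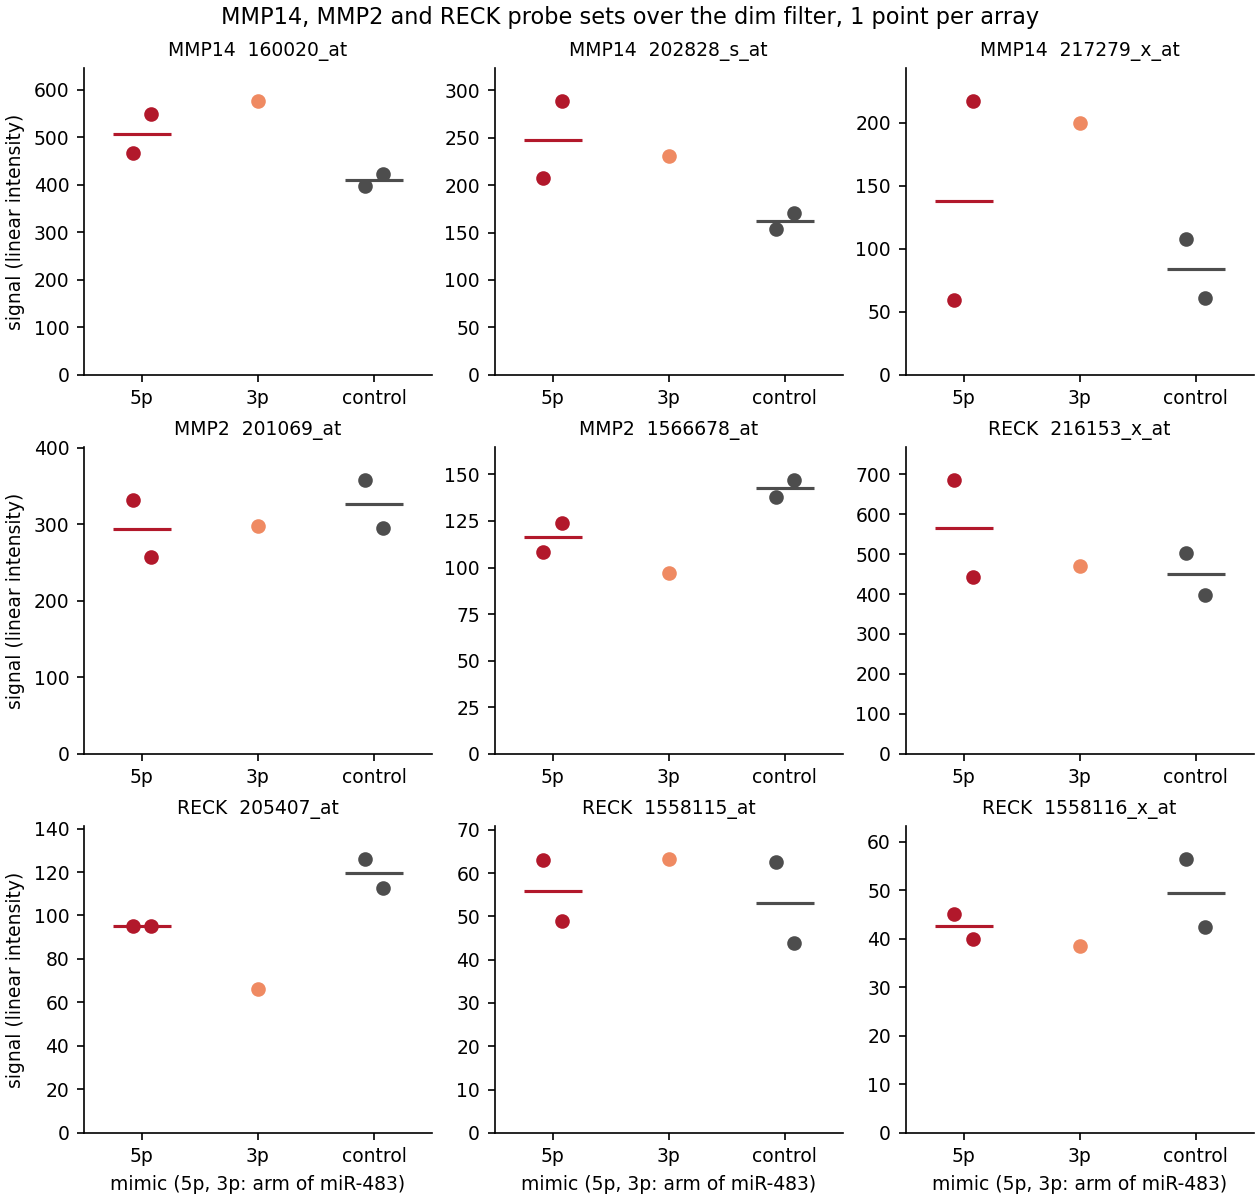
Signal (linear intensity, axes from 0) of the 9 probe sets of MMP14, MMP2 and RECK that passed the filter on dim values, 1 point per array, with miR-483-5p on the left, miR-483-3p in the middle and the scrambled control on the right; bars mark the means of the pairs. MMP14 160020_at and 202828_s_at lie above the controls with both mimics, MMP2 1566678_at and RECK 205407_at lie below them, and 217279_x_at shows the pair of miR-483-5p arrays at 59.3 and 217.0.

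The second comparison concerned the 3p arm. Only 1 array carries it, and the fit takes the spread of that array to equal that of the pairs. The miR-483-3p array lay below both controls in 7 of the 8 TIMP1, TIMP2 and TIMP3 probe sets, where 35.6% of all probe sets tested were below and 32.5% above. The differences were small, from -0.30 in TIMP1 to -0.04 in TIMP3 201147_s_at. TIMP2 231579_s_at differed by -0.16 (SE 0.17, 95% CI -0.56 to 0.23, limma adjusted p = 0.940) and TIMP3 201150_s_at by -0.06 (adjusted p = 0.986). MMP14 160020_at was higher by 0.46 (SE 0.18, 95% CI 0.03 to 0.89, limma adjusted p = 0.732), and its 3 probe sets over the filter all lay above both controls, by 0.43 to 1.03. MMP14 was the 1 member of 6 with an unadjusted p under 0.05, against 6.56% of all genes, and no gene was called after adjustment (0%).

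The third comparison set the arms of miR-483 against each other. TIMP2 was lower with miR-483-5p than with miR-483-3p in all 3 probe sets, and the arrays did not overlap in any of them. In 231579_s_at the signals were 1170.7 and 1180.4 with miR-483-5p and 1879.8 with miR-483-3p, a log2 difference of -0.66 (SE 0.17, 95% CI -1.06 to -0.27, limma adjusted p = 0.589). TIMP3 201150_s_at was lower by less, at -0.38 (95% CI -0.79 to 0.02, adjusted p = 0.764), and TIMP1 differed by -0.10 (95% CI -0.55 to 0.35). For MMP14 160020_at the difference was -0.18 (95% CI -0.61 to 0.26, adjusted p = 0.911), or -0.07 without the first miR-483-5p array and -0.29 without the second. Of the 8 TIMP probe sets, 6 had both miR-483-5p arrays below the miR-483-3p array, where 32.8% of all probe sets were lower and 33% higher. TIMP2 was the 1 member of 6 with an unadjusted p under 0.05, as were 6.65% of all genes, and none was called after adjustment (0%).

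**Figure D3:**
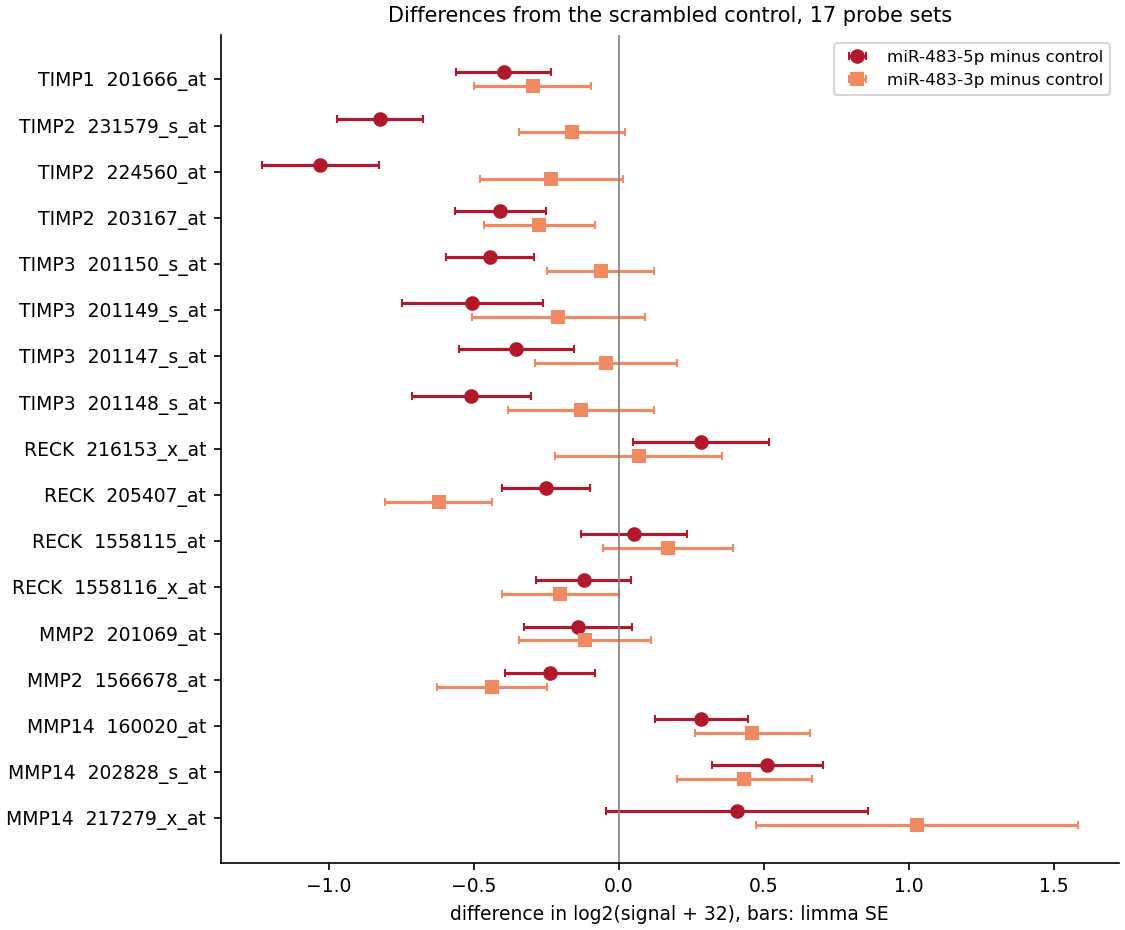
Difference from the scrambled control in log2(signal + 32) for the 17 member probe sets that passed the filter, with miR-483-5p as circles and miR-483-3p as squares; bars are the limma SE, and for the lone miR-483-3p array that SE borrows the spread of the pairs. TIMP2 231579_s_at and 224560_at stand apart with miR-483-5p at -0.83 and -1.03, and the MMP14 probe sets are right of 0 with both mimics.

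Set among all 14591 genes tested, the difference of TIMP2 between miR-483-5p and the control had 0.32% of genes below it. For TIMP3 this share was 4.03% and for TIMP1 5.5%, while MMP2 stood at 27.71%, RECK at 89.34% and MMP14 at 89.44%. With miR-483-3p the same shares were 23.98% for TIMP2, 38.6% for TIMP3, 11.47% for TIMP1 and 96.61% for MMP14. The medians over all genes were -0.008 for miR-483-5p and -0.001 for miR-483-3p. The comparisons of both mimics share the same pair of control arrays.

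**Figure D4:**
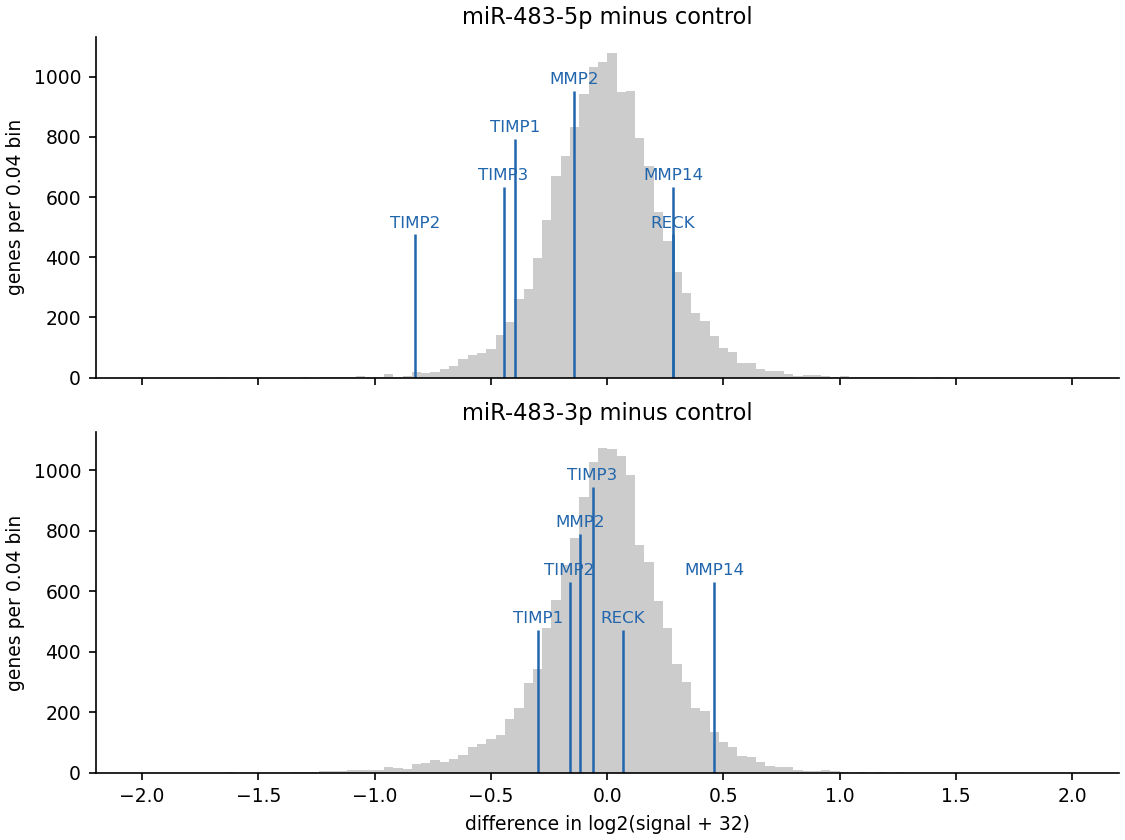
Number of genes per bin of 0.04 in the difference of log2(signal + 32), for miR-483-5p minus control above and miR-483-3p minus control below, over 14591 genes; vertical lines mark the 6 members tested, with heights chosen only to separate the names. TIMP2 lies in the lower tail at -0.83 with miR-483-5p and inside the bulk at -0.16 with miR-483-3p.

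The start regions of TIMP1, TIMP3 and MMP14 are shown because the arrays of these members did not overlap between miR-483-5p and the control in their brightest probe sets. The windows are RefSeq's, build GRCh38.p14, with 250 bases before and 50 after the gene's start, and 5 of the 7 members matched. TIMP2 and MMP2 had no matching window, so TIMP2 is not shown although its arrays did not overlap either. Capitals mark GC boxes, the letters GGGCGG on either strand, a motif known to bind SP1.
TIMP1, chrX:47582186-47582485, plus strand: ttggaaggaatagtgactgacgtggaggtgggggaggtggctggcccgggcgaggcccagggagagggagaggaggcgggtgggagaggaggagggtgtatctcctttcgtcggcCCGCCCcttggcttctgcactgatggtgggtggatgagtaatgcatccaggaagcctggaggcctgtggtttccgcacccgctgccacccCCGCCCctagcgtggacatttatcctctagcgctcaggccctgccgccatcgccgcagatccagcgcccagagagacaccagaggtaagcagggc
TIMP3, chr22:32801455-32801754, plus strand: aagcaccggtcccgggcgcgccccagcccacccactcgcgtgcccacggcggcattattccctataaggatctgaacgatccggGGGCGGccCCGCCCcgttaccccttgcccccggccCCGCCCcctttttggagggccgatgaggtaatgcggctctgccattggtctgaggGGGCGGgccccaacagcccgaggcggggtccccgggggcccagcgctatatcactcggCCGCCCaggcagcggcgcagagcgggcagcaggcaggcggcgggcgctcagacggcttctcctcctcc
MMP14, chr14:22836335-22836634, plus strand: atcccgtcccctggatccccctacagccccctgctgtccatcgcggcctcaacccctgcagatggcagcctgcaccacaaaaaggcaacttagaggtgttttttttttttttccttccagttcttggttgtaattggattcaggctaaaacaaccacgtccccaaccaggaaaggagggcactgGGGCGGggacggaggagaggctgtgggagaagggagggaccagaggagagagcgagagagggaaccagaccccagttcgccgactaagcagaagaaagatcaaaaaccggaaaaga
The TIMP3 window held 5 GC boxes, that of TIMP1 held 2 and that of MMP14 held 1, and of the windows not printed RECK held 3 and TIMP4 held 1. Over all 35116 promoter windows of this length, 45.0% held at least 1. The G and C content was 65.0% in TIMP1, 72.7% in TIMP3, 55.0% in MMP14, 66.7% in RECK and 64.0% in TIMP4. None of the 5 held TGANTCA, a motif of AP-1 that 7.7% of all windows hold, or TATAAA, which 11.5% hold, on either strand. A match is a description of letters and no evidence of binding.

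The genes with profiles most like that of TIMP2 over the 5 arrays were CSTB, SGTA, RAB29, ALCAM and ACBD6, by the root mean square difference of centred log2 profiles, which was 0.046 for CSTB and 0.063 for ACBD6. CSTB, an inhibitor of intracellular cysteine proteinases, had 841.4 and 876.0 with miR-483-5p, 1448.1 with miR-483-3p, against 1514.5 and 1474.0 in the control. ALCAM, a cell adhesion molecule and like TIMP2 a reported miR-483-5p target, had 463.5 and 462.3 with miR-483-5p, 690.7 with miR-483-3p, against 884.2 and 822.3 in the control. Each of the 5 had both miR-483-5p arrays far below the other 3 arrays, with log2 differences from the control between -0.69 for ACBD6 and -0.84 for ALCAM, whose other probe sets ran from -1.16 to 0.03. They were picked for this likeness out of 14590 genes, so it is a description.

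**Figure D5:**
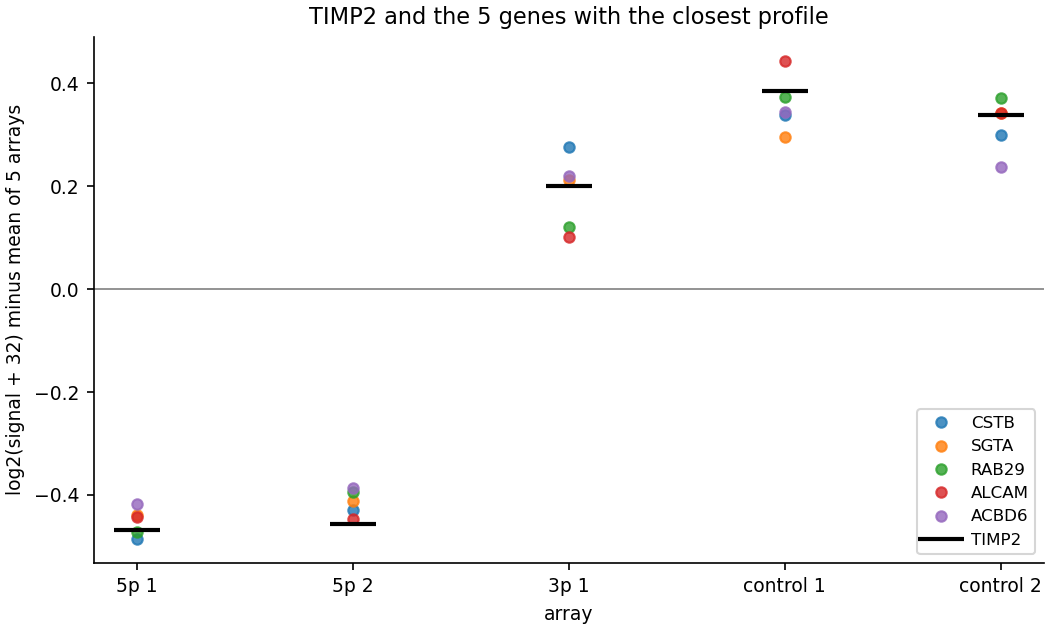
Log2(signal + 32) minus its mean over the 5 arrays, for TIMP2 (black bars) and the 5 genes with the closest profile (coloured points), by array, with miR-483-5p arrays left, miR-483-3p in the middle and control arrays right. All 6 genes lie below 0 on both miR-483-5p arrays and above 0 on the other 3.

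Of the 8 reported miR-483-5p targets on the list, TIMP2 among them, 7 had lower values with miR-483-5p than the scrambled control gave. Over all genes tested, 7514 of 14591 were lower. Of the 7, SOCS3 differed by only -0.01 with overlapping arrays, and its other probe sets gave 0.17 to 0.21. SRF was higher by 0.47 (-0.16 in its other probe set). The list median was -0.65, against -0.008 over all genes. With miR-483-3p 3 of the 8 were lower than the control, with a median of 0.05. The list was drawn from earlier reports and chosen with earlier results of these data known, so its counts and median are a description and no test. None of its genes passed limma's test after adjustment over all genes.

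Other genes of matrix proteolysis were taken from lists by role. Of 21 further matrix metalloproteinases, 12 were tested, and under miR-483-5p 9 were lower and 3 higher, the median being -0.11. MMP16, a membrane-anchored enzyme like MMP14, had 44.4 and 47.0 with miR-483-5p, 23.3 with miR-483-3p, against 72.7 and 73.3 in the control. Both mimics lay below both controls, by -0.44 with miR-483-5p (limma adjusted p = 0.387) and by -0.93 with miR-483-3p (adjusted p = 0.391), although the signals are dim and its 4 other probe sets ranged from -0.60 to 0.20 and from -0.35 to 0.00. The membrane-anchored MMP25 and MMP17 differed by -0.39 and -0.26 with miR-483-5p, with 0.46 in another MMP25 probe set, and the gelatinase gene MMP9 by 0.16. Groups did not overlap in 6 of the 12, where 42.5% of all genes tested did not overlap.

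Among ADAM and ADAMTS proteinases, several of which TIMP3 inhibits, 9 of 20 tested were higher and 11 lower under miR-483-5p (median -0.02). ADAMTS1, a secreted proteinase that cleaves proteoglycans, had 167.4 and 200.9 with miR-483-5p, 134.3 with miR-483-3p, against 98.5 and 104.8 in the control. Its log2 difference was 0.69 (SE 0.15, limma adjusted p = 0.332), and its other probe set gave 0.93. The cell surface sheddases ADAM10 and ADAM9 were higher by 0.28 and 0.19, with -0.10 to 0.06 and -0.17 to 0.12 in their other probe sets. ADAM28 differed by -0.45 in a dim probe set, with -0.07 to 0.10 in its others. ADAM19 and ADAMTS5 differed by -0.23 and -0.22, with -0.38 and with -0.21 to 0.11 in their other probe sets.

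Surface and activating partners of these enzymes were split evenly, with 7 of 14 higher and a median of 0.01. BSG, a membrane protein known to induce metalloproteinases in neighbouring cells, had 1942.5 and 1804.2 with miR-483-5p, 2050.6 with miR-483-3p, against 2583.6 and 2520.3 in the control. Both mimics were below both controls, with a difference of -0.44 for miR-483-5p (limma adjusted p = 0.388). The integrin gene ITGB3 differed by -0.53, with other probe sets between -0.54 and 0.17, CLDN1 by -0.12 (-0.21 in its other probe set) and the integrin gene ITGAV by 0.18. In the plasminogen system 4 of 7 were higher, with a median of 0.06; PLAUR, the urokinase receptor, was higher by 0.19, with 0.20 to 0.26 in its other probe sets, whereas the protease inhibitor gene SERPINE2 gave 0.10 in its brighter probe set and -0.34 in the other. Of 9 other secreted proteinase inhibitors 6 were lower, with a median of -0.08. Among them the membrane-associated serine protease inhibitor SPINT1 differed by -0.41 (-0.10 in its other probe set), SERPINA1 by -0.19 (-0.26 to -0.02 in others) and PZP by -0.13. TFPI, an inhibitor of coagulation, differed by 0.21 in its brightest probe set and by -0.36 to 0.21 in the others. PCOLCE, which enhances procollagen processing and is not itself a proteinase inhibitor, was higher by 0.31.

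Matrix genes, among them substrates of MMP2 and MMP14, were mostly lower in the miR-483-3p array than elsewhere. Of 19 tested, 11 were higher under miR-483-5p relative to the control, with a median of 0.02, whereas 14 were lower under miR-483-3p relative to the control, with a median of -0.16. These counts take 1 probe set per gene. With miR-483-3p the other probe sets ran from -0.32 to 0.94 in BGN and from -0.19 to 0.80 in COL1A2. They ran from -0.39 to 0.25 in COL3A1 and from -0.73 to 0.26 in DCN. The other COL4A1 probe set gave 0.71 and that of HSPG2 -0.72. Between the arms 16 of 19 were higher under miR-483-5p (median 0.21). Arrays did not overlap in that direction in 14 of them, against 34.4% of all genes, and 12 of 19 had the miR-483-3p array below both controls, against 35.4%. All counts that involve miR-483-3p rest on the same single array, so they are not separate observations, and the genes are not replicates of it. The matricellular gene THBS2 had 65.6 and 76.6 with miR-483-5p, 30.4 with miR-483-3p, against 31.9 and 46.3 in the control, and its difference between the arms was 0.72 (SE 0.20). NID1, of the basement membrane, and the fibronectin gene FN1 were higher than the control by 0.40 and 0.28 with miR-483-5p, with -0.003 to 0.16 in other NID1 and -0.78 to 0.29 in other FN1 probe sets. SPARC, COL1A1 and COL1A2 differed by -0.05, -0.18 and -0.23, and their other probe sets gave 0.05 for SPARC, -0.11 to 0.21 for COL1A1 and -0.25 to 0.02 for COL1A2. The fibroblast marker list, which shares COL3A1 and DCN with these genes, was also lowest in the miR-483-3p array, at a summed 1490; its part in the difference was not tested.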

How the data were processed

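The deposited values are probe set signals on a linear intensity scale, which the authors had scaled to a trimmed mean of 150 per array (2% trimmed at each end), as computed from the columns. GCOS and Partek are named in the submitters' processing notes, with no version and no role, and how probes were summarised into a signal is not stated there. The 62 control probe sets were left out. Names came from probe sets with 1 gene symbol (41097), of which 41043 matched RefSeq by gene identifier. Each gene was represented by its probe set with the highest mean. Genes were left out where that probe set lay under the 40th percentile of mean log2 signal over all probe sets. TIMP4 dropped out in this way. Log2(signal + 32) was modelled in limma 3.58.1 (R 4.3.3) as 1 mean per group over 5 arrays, 2 residual and 4.96 prior degrees of freedom, two-sided moderated tests, and Benjamini-Hochberg adjustment over all genes. An exact permutation of 2 against 2 arrays cannot go below p = 0.333 and was not used. Tested on simulated data, the fit of miR-483-5p against the control recovered 58.75% of genes changed 2-fold among 14591 genes, with a mean of 7.2 false calls. These figures hold for the simulated settings alone and give no recovery rate for any gene here. With so few arrays the precision is low. Members and lists were chosen with earlier results of these data known. Named genes were all members, the 5 closest to TIMP2, and up to 3 highest and 3 lowest non-overlapping genes per list, of which 1 is not reported here. Alternatives covered scaling, filter, pseudocount, probe set choice, variance prior and single arrays. Figures used matplotlib 3.10.9.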

Additional observations from a re-analysis of the deposited data

How the results depend on the processing

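The reported fit called 0 genes in each comparison, with 1563, 957 and 970 at an unadjusted p under 0.05, and the counts depended on the settings. For miR-483-5p against the control 37 genes were called with each array centred on its median, 33 with a pseudocount of 100, 39 with a variance prior that follows intensity and 1 with the 60th percentile filter. For miR-483-3p against the control the counts were 2, 1 and 1 under the first 3 of these, and between the arms 7 were called with median centring. Leaving out any paired array called from 0 to 0 genes in each comparison. The cause of these changes was not tested. TIMP2 was the only member called under any alternative, against the control with miR-483-5p (adjusted p = 0.0126 with the intensity prior and 0.0159 with the pseudocount of 100, of a range of 0.0126 to 0.520). Directions of TIMP2, TIMP3 and MMP14 held in all 13 alternatives of each comparison, MMP14 ranging between 0.174 and 0.394 in the first. Some alternatives could not move these values, so they do not test direction. Both filter changes, the fit by single probe sets and the intensity prior left the tested members at their reported differences. Omitting a miR-483-5p array could not alter their values for miR-483-3p against the control. Omitting a control array could not alter those between the arms. With the mean of its probe sets RECK turned to -0.08 for miR-483-5p and -0.195 for miR-483-3p, and MMP2 to 0.083 between the arms. Over the fits that each left out 1 paired array, RECK ran from -0.013 (without the first miR-483-5p array) to 0.579 for miR-483-5p, from -0.089 (without the second control) to 0.225 for miR-483-3p, and from -0.08 (without the first miR-483-5p array) to 0.511 between the arms. MMP2 ran from -0.306 to 0.025 (without the second miR-483-5p array), from -0.243 to 0.009 (without the first control) and from -0.189 to 0.142 (without the second miR-483-5p array) in the same comparisons. TIMP1 ran from -0.223 to 0.022 (without the second miR-483-5p array) between the arms. No paired analysis was possible because the labels pair no arrays across groups, and the array numbers used here only follow the order of deposit. Whether dim probe sets lay above background is unknown here.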
